A study of Mus musculus with 8 samples.

Results

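The aquaporin family is the group of genes that encode membrane channels for water and, in some members, glycerol. The 10 mouse genes *Aqp1* to *Aqp9* and *Aqp11* were chosen by their symbols, out of 24063 genes listed for each culture. They were measured by RNA-Seq in tubuloids, 3-dimensional structures grown in Matrigel from fragments of mouse kidney tubules. All 8 cultures carried the genotype Pkd2fl/fl Pax8rtTA TetOCre mTmG. It combines floxed *Pkd2* alleles, a doxycycline-inducible transactivator under the *Pax8* promoter of renal tubular cells, a Cre transgene that it switches on, and a fluorescent reporter of recombination. The labels name no doxycycline for these cultures. The 4 GDNF cultures, numbered 6, 12, 17 and 22, received 20 ng/ml of glial cell line-derived neurotrophic factor in growth factor medium for 24 h. The methods also allow a longer exposure than 24 h. The same medium without the factor followed. The 4 control cultures, numbered 3, 7, 14 and 21, received the growth factor medium alone. All were collected on culture day 7. The labels give postnatal day 7 to 10 for the kidneys, whereas the methods give day 4 to 7. Neither says whether the cultures came from separate mice, so the p-values measure only the spread between these cultures, which may be technical.

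Water crosses an epithelium quickly only where its membranes hold aquaporins. In the kidney, *Aqp1* serves the proximal tubule and the thin descending limb. In the principal cells of the collecting duct, vasopressin acts through its receptor, cyclic AMP and protein kinase A to bring *Aqp2* channels from vesicles to the apical membrane, and water leaves through *Aqp3* and *Aqp4* on the basolateral side. *Aqp3*, *Aqp7* and *Aqp9* also pass glycerol. *Aqp11* is an unusual member that resides largely in the endoplasmic reticulum, and mice that lack it develop cystic kidneys.

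The family signature is a loop of asparagine, proline and alanine that lines the pore, and it occurs as a pair in most members. Codons for these residues, spelled AACCCNGCN or AATCCNGCN, were searched for in frame in the GENCODE M21 coding sequences. They occurred as 2 matches in 8 members, as 1 match in *Aqp11*, and not in these letters in *Aqp7*. The windows of 33 bases below hold the match nearer the 3′ end, in capitals. They are shown because they set some of the members with 2 matches beside *Aqp11*, whose level led the family. All windows lie within an exon of the coding sequence on GRCm38.
*Aqp1*, exon 3, chr6:55345825-55345857, plus strand: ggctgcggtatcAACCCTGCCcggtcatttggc
*Aqp2*, exon 3, chr15:99583112-99583144, plus strand: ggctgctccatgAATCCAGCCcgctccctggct
*Aqp5*, exon 3, chr15:99593258-99593290, plus strand: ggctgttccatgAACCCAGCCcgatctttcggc
*Aqp6*, exon 3, chr15:99602981-99603013, plus strand: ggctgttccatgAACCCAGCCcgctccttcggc
*Aqp3*, exon 5, chr4:41093829-41093861, minus strand: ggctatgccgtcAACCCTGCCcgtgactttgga
*Aqp9*, exon 5, chr9:71122838-71122870, minus strand: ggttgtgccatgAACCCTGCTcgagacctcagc
*Aqp11*, exon 2, chr7:97729041-97729073, minus strand: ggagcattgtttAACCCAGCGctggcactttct

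The genes *Aqp2*, *Aqp5* and *Aqp6* lie side by side on chromosome 15. In the RefSeq annotation of GRCm38.p6, 6482 bases separate *Aqp2* from *Aqp5* and 3638 bases separate *Aqp5* from *Aqp6*. *Aqp7* and *Aqp3* share chromosome 4, 44486 bases apart. *Aqp11* spans chr7:97726379-97738247, *Aqp1* spans chr6:55336299-55348555, and *Aqp5* spans chr15:99591028-99594829.

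The libraries held 72991721 to 97490625 transcript counts. In 4 cultures, control 3 and 7 and GDNF 6 and 12, *Xist* RNA of the inactive X chromosome was at 12.5 to 68.0 TPM, the level that the authors normalized for transcript length and library. In the other 4, control 14 and 21 and GDNF 17 and 22, it was at no more than 0.111 TPM, and RNA of 4 Y-linked genes summed to 116 to 194 TPM. GDNF culture 6 held 6.46 TPM and control culture 3 held 1.5 TPM of the Y-linked RNA beside *Xist*. This split crosses the groups evenly, with 2 cultures of each kind per group, and the labels give no sex. Control culture 3 also stood apart in composition, with a TMM scaling factor of 0.790 against 0.963 to 0.982 in the other controls and 1.07 to 1.11 in the GDNF cultures. Markers of epithelium, with keratin 8 and 18 and E-cadherin among them, summed to 399 to 3341 TPM and those of stroma to 111 to 1030 TPM over the cultures. In such mixed cultures, fewer cells of a type and less RNA per cell cannot be told apart.

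As a family, the aquaporins were sparse in these tubuloids. Only *Aqp11* averaged 1 TPM or more, a level that 13698 genes reached. Of the 80 values of a member in a culture, 18 were at 0, 5 were at 1 to 3 counts, taken as the lowest level that can be shown, and 57 were above it. From 5 to 8 members exceeded that level in a culture. Averaged over the 8 cultures, the per-length order was *Aqp11* at 1.09 ± 0.791 TPM (SD, n = 8), *Aqp3* at 0.719 ± 0.375 TPM, *Aqp5* at 0.554 ± 0.520 TPM and *Aqp1* at 0.220 ± 0.0848 TPM. *Aqp9* and *Aqp4* followed at 0.175 ± 0.151 and 0.171 ± 0.143 TPM. *Aqp8*, *Aqp7* and *Aqp2* averaged 0.0849 ± 0.134, 0.0737 ± 0.0483 and 0.0735 ± 0.119 TPM, and *Aqp6* came last at 0.00784 TPM. Each member's mean exceeded that of the next in this order by less than its own SD over the cultures. These levels rest on the deposited transcript models. That of *Aqp11* is 1322 bases long, against 3737 bases in GENCODE M21, and reads from the remainder are not in its count.

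**Figure D1:**
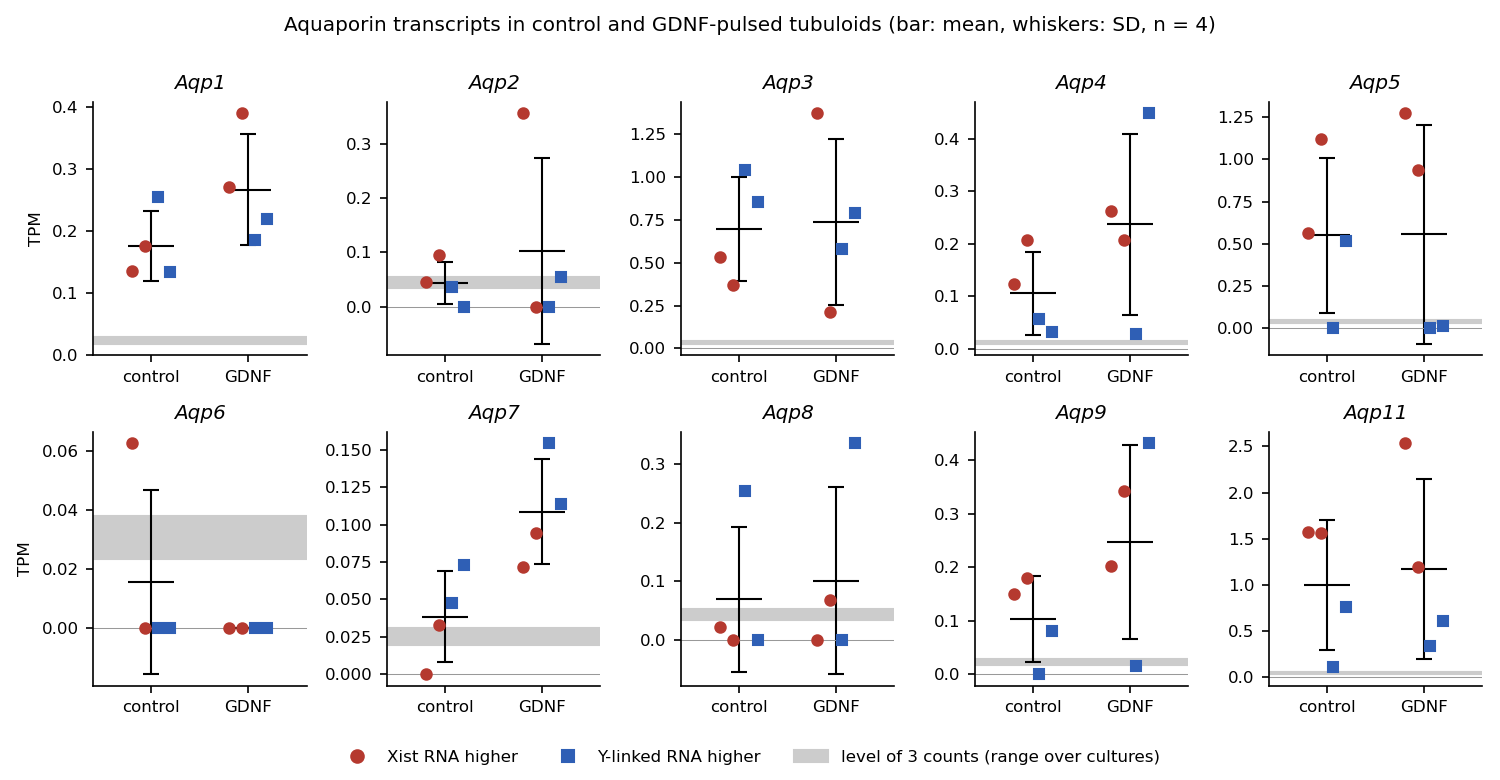
TPM of each aquaporin transcript in every culture (points; circles, *Xist* RNA higher; squares, Y-linked RNA higher), with the mean and SD of the 4 control and 4 GDNF cultures; the grey band is the level of 3 counts. The groups overlap for every member, and all points of *Aqp6* but that of control culture 3 are at 0.

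*Aqp2*, the vasopressin-regulated water channel of principal cells, was close to the lowest level that can be shown. Control cultures 3, 7, 14 and 21 held 4, 8, 3 and 0 counts, or 0.0456, 0.0946, 0.0363 and 0 TPM. GDNF cultures 6, 12, 17 and 22 held 25, 0, 0 and 3 counts, or 0.356, 0, 0 and 0.0555 TPM. A single culture, GDNF 6, thus supplied 58.1% of all *Aqp2* counts. The means of 0.0441 ± 0.0390 TPM in controls and 0.103 ± 0.171 TPM after GDNF did not differ beyond the spread (exact permutation test, two-sided, p = 0.80, n = 4 per group). Without GDNF culture 6 the difference turned to -0.0256 TPM. With 70 ways to assign the cultures, the smallest p this test can give is 0.0286.

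*Aqp3*, which passes water and glycerol across the basolateral membrane of principal cells, was detected in every culture. It stood at 58, 39, 107 and 73 counts in control cultures 3, 7, 14 and 21, or 0.531, 0.370, 1.04 and 0.852 TPM. In GDNF cultures 6, 12, 17 and 22 it stood at 120, 19, 50 and 53 counts, or 1.37, 0.215, 0.582 and 0.788 TPM. The highest and the lowest culture were both in the GDNF group, and the ranges overlapped. The means were 0.699 ± 0.303 TPM in controls and 0.739 ± 0.484 TPM after GDNF (two-sided p = 0.914 by exact permutation). Once scaled by library size and TMM factor (CPM) the sign of this difference was reversed, at -0.14 CPM.

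*Aqp4*, the other basolateral channel, stood at 0.124, 0.208, 0.0574 and 0.0324 TPM in control cultures 3, 7, 14 and 21, on 39, 63, 17 and 8 counts. It stood at 0.262, 0.208, 0.0283 and 0.449 TPM in GDNF cultures 6, 12, 17 and 22, on 66, 53, 7 and 87 counts. GDNF culture 17 lay below every control, whereas GDNF 6 and 22 lay above every control and GDNF 12 was level with the highest. The means of 0.105 ± 0.0784 TPM in controls and 0.237 ± 0.173 TPM after GDNF did not differ beyond the spread (two-sided p = 0.257 by exact permutation).

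*Aqp1*, the constitutive water channel of the proximal tubule and also of endothelium and red cells, varied least between cultures, by 38.5% of its mean TPM (SD over mean, n = 8). It held 0.135, 0.176, 0.255 and 0.134 TPM in control cultures 3, 7, 14 and 21, on 18 to 41 counts. It held 0.270, 0.390, 0.186 and 0.218 TPM in GDNF cultures 6, 12, 17 and 22, on 23 to 54 counts. The group means were 0.175 ± 0.0568 and 0.266 ± 0.0896 TPM, and control culture 14 lay above 2 of the GDNF cultures (two-sided p = 0.114 by exact permutation). The 14 proximal tubule markers summed to 10.6 to 22.8 TPM in controls and 23.0 to 34.2 TPM after GDNF, without overlap. Control culture 21 was at 22.8 and GDNF culture 6 at 23.0 TPM, and 19.9% of all genes separated the groups in TPM, most of them higher after GDNF. Of the 9 proximal tubule markers tested in counts, 1 had an unadjusted p of 0.05 in edgeR and 0 passed the adjusted p. Endothelial markers summed to 45.3 to 138 TPM in controls and 64.4 to 156 TPM after GDNF. The erythroid markers summed to 0.599 to 11.0 TPM over all cultures. Their part in the level of *Aqp1* was not tested.

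*Aqp7*, the glycerol channel of fat cells and of the brush border in the straight proximal tubule, came nearest to separating the groups in TPM. It was at 0, 0.0332, 0.0476 and 0.0734 TPM in control cultures 3, 7, 14 and 21, on 0, 5, 7 and 9 counts. It was at 0.0719, 0.0947, 0.154 and 0.114 TPM in GDNF cultures 6, 12, 17 and 22, on 9, 12, 19 and 11 counts. GDNF culture 6 lay just below control culture 21, so the groups overlapped. The means were 0.0385 ± 0.0306 and 0.109 ± 0.0350 TPM (exact permutation test, two-sided, p = 0.0571, unadjusted over the 9 members tested). Permuting only within each kind of culture gave p = 0.0556, the smallest that its 36 assignments allow (exact permutation test). Of the 5 adipocyte markers, *Lep* was at 0 and *Adipoq* did not exceed 0.891 TPM, while *Fabp4*, which endothelium also expresses, reached 197 TPM in a culture with Y-linked RNA. The part of these cells in the level of *Aqp7* was not tested.

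*Aqp9*, a glycerol and urea channel best known from hepatocytes and leukocytes, was listed as 3 transcripts with nearly equal counts, so their sum counts the same reads several times. The one used for TPM, NR_073483, is a noncoding variant. Control cultures 3, 7, 14 and 21 held 26, 30, 0 and 11 counts of it, or 0.15, 0.180, 0 and 0.0809 TPM. GDNF cultures 6, 12, 17 and 22 held 28, 48, 2 and 46 counts, or 0.202, 0.342, 0.0147 and 0.431 TPM. A culture of each group lay at or below the lowest level that can be shown (exact permutation test, two-sided, p = 0.200). Leukocyte markers summed to 7.13 to 15.8 TPM. *Cd3e* was at 0, whereas *S100a8* averaged 3.53 ± 1.65 TPM in controls and 5.35 ± 4.82 TPM after GDNF. *Cd68* averaged 3.48 ± 0.785 and 4.64 ± 1.40 TPM. The part of leukocytes in the level of *Aqp9* was not tested.

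*Aqp8*, a channel of colon and exocrine glands that has also been placed in mitochondria, was seen above 3 counts in only 3 cultures. These were control 14 with 22 counts (0.254 TPM), GDNF 22 with 19 counts (0.336 TPM) and GDNF 12 with 5 counts (0.0672 TPM), beside 2 counts in control 3 and 0 in the other cultures (exact permutation test of TPM, two-sided, p = 0.714). Its 2 listed transcripts had identical counts. *Aqp6*, a channel of intracellular vesicles in acid-secreting intercalated cells, had 8 counts in control culture 3, or 0.0627 TPM, and 0 counts in the other 7 cultures. A count of 0 there allows levels of up to 0.0244 to 0.0382 TPM, the level of 3 counts; these limits cover counting error only. The intercalated cell markers summed to 3.36 to 11.3 TPM.

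*Aqp11* was the most abundant member per length of the deposited transcripts. It stood at 1.58, 1.56, 0.117 and 0.763 TPM in control cultures 3, 7, 14 and 21, on 129, 123, 9 and 49 counts. In GDNF cultures 6, 12, 17 and 22 it stood at 2.53, 1.19, 0.341 and 0.614 TPM, on 166, 79, 22 and 31 counts. The group means of 1.0 ± 0.702 TPM in controls and 1.17 ± 0.974 TPM after GDNF did not differ beyond the spread (exact permutation test, two-sided, p = 0.80). All 4 cultures with *Xist* RNA lay above all 4 with Y-linked RNA, with means of 1.71 and 0.459 TPM, a 3.74-fold difference.

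*Aqp5*, the apical water channel of salivary, lacrimal and airway glands, was divided in the same way. Control cultures 3, 7, 14 and 21 held 54, 104, 0 and 39 counts, or 0.562, 1.12, 0 and 0.517 TPM. GDNF cultures 6, 12, 17 and 22 held 98, 73, 0 and 1 counts, or 1.27, 0.938, 0 and 0.0169 TPM. The group means of 0.551 ± 0.459 and 0.557 ± 0.648 TPM were close beside their SDs (exact permutation test, two-sided, p = 0.971). The cultures with *Xist* RNA averaged 0.974 TPM and those with Y-linked RNA 0.134 TPM, 7.29-fold apart. Control culture 21 supplied 39 of the 40 counts in the latter.

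Of the 9 members with a mean of at least 3 counts, *Aqp11* and *Aqp5* separated the kinds of culture in this way, and 0 did so in the opposite direction. Over all genes with that mean, 1.88% lay higher and 3.2% lower without overlap, or 5.08% together. The split was noticed in the data and is not a group of the study, so the separation was not tested; the split enters tests only as a term of the GDNF comparison. The summed TPM of the 7 principal cell markers moved with it, at 27.5 to 91.4 TPM in the cultures with *Xist* RNA and 6.92 to 15.4 TPM in the others. *Fxyd4*, a regulator of the sodium pump in the collecting duct, made up most of these sums, with 19.8 to 69.3 TPM against 4.95 to 10.3 TPM, and the vasopressin receptor *Avpr2* ranged from 0.611 to 4.43 TPM over all cultures. Intercalated cell markers summed to 5.58 to 11.3 TPM in the cultures with *Xist* RNA and 3.36 to 7.09 TPM in the others. Proximal tubule markers summed to 10.6 to 27.6 and 22.2 to 34.2 TPM, so the kinds overlapped for both. The part of any of these cell types in the levels of *Aqp11* and *Aqp5* was not tested. Of the 43 counts of *Aqp2*, 37 were in the cultures with *Xist* RNA, with means of 0.124 and 0.0230 TPM in the kinds of culture, and 25 of the 37 were in GDNF culture 6. GDNF culture 12, with 39.9 TPM of principal cell markers, had 0 counts, so the kinds overlapped for *Aqp2*.

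**Figure D2:**
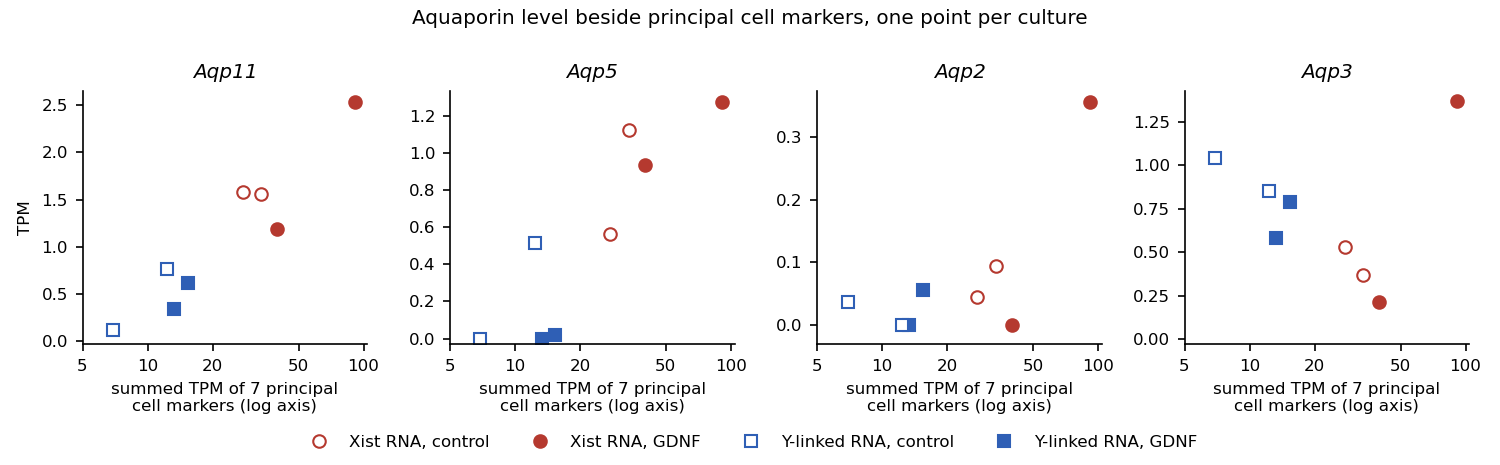
TPM of *Aqp11*, *Aqp5*, *Aqp2* and *Aqp3* against the summed TPM of 7 principal cell markers (log axis), with a point for each culture (open, control; filled, GDNF; circles, *Xist* RNA higher; squares, Y-linked RNA higher). The circles lie above the squares for *Aqp11* and *Aqp5* and overlap them for *Aqp2* and *Aqp3*.

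The make-up of the family also varied by culture. *Aqp11* was the leading member in TPM in all 4 cultures with *Xist* RNA, at 34.6% to 49.1% of the family sum, and *Aqp3* led in all 4 with Y-linked RNA, at 26.1% to 57.6%. The summed TPM of the 10 members was 3.21, 3.74, 1.81 and 2.45 in control cultures 3, 7, 14 and 21 and 6.34, 3.45, 1.31 and 3.02 in GDNF cultures 6, 12, 17 and 22. The group means were 2.80 ± 0.849 and 3.53 ± 2.09 TPM (SD, n = 4). The highest and the lowest sums were both in the GDNF group.

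**Figure D3:**
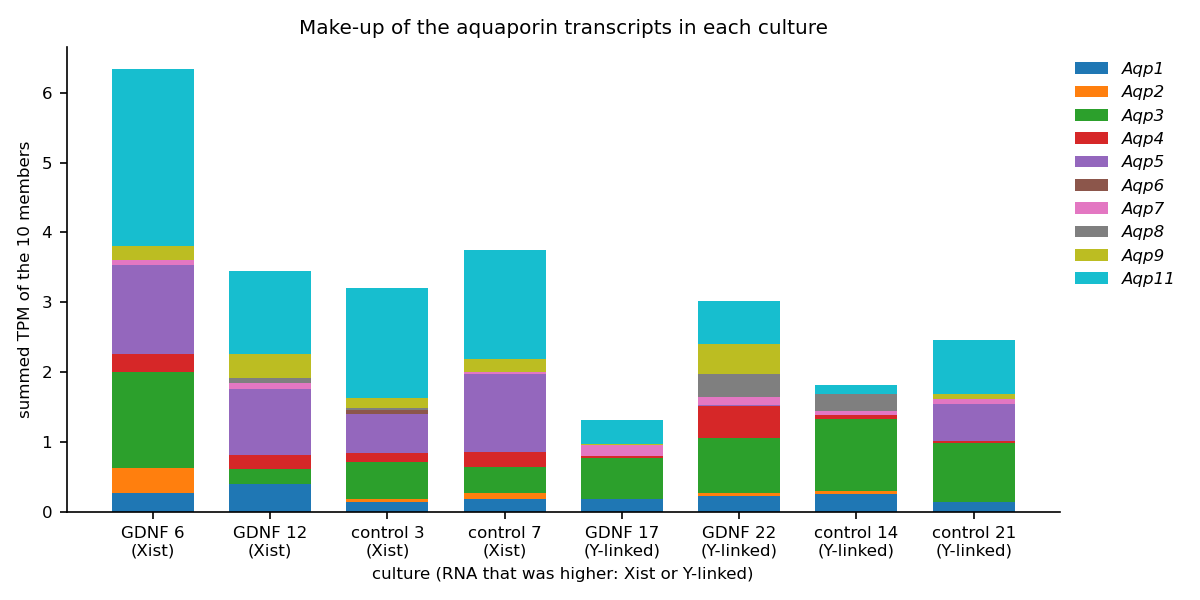
Summed TPM of the 10 aquaporins in each culture, divided by member and ordered by whether *Xist* or Y-linked RNA was higher. The sums range from 1.31 TPM in GDNF culture 17 to 6.34 TPM in GDNF culture 6.

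To ask whether the GDNF pulse changed aquaporin expression, counts of all genes were fitted together. Of 16557 genes tested, 0 passed an adjusted p of 0.05 in edgeR's quasi-likelihood test (0.0%; the smallest adjusted p was 0.167), whereas 3665 (22.1%) had an unadjusted p below that value. Of these, 1531 were higher and 2134 lower after GDNF (9.25% and 12.9% of the genes tested). Scaled by library size only, the split became 3299 higher and 850 lower and the median log2 fold change of all genes moved from 0.03 to 0.25, so directions depended on the scaling. DESeq2 called 1242 genes, 177 higher and 1065 lower, or 14.4% of the 8610 to which it gave an adjusted p. The 6 members with enough counts, *Aqp1*, *Aqp3*, *Aqp4*, *Aqp5*, *Aqp9* and *Aqp11*, included 0 calls and 0 at an unadjusted p of 0.05 in edgeR. DESeq2 left all 6 without an adjusted p, and their smallest unadjusted p in it was 0.405. In CPM, 0 of the 6 separated the groups without overlap, against 13.2% of all genes tested. In TPM, 0 of the 9 members tested reached p = 0.05 by permutation, against 19.9% of genes, most of them higher after GDNF (19.3%). The mean TPM was higher after GDNF in 9 of 10 members, but also in 78.6% of the genes averaging 1 TPM or more, whose median log2 change in TPM was 0.40.

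The log2 fold changes in CPM were positive in 3 members and negative in 3, with a median of -0.00755 beside 0.03 for all genes. That of *Aqp1* was 0.22 ± 0.47 (SE; 95% interval -0.83 to 1.26; edgeR adjusted p = 0.811) and that of *Aqp3* was -0.28 ± 0.58 (-1.57 to 1.01; adjusted p = 0.80). *Aqp4* and *Aqp9* were at 0.69 ± 0.81 (-1.12 to 2.50) and 0.73 ± 1.12 (-1.77 to 3.24), with edgeR adjusted p = 0.635 and 0.725. The values of *Aqp9* rest on counts summed over its overlapping transcripts. With 1 transcript per gene its log2 fold change was 0.77. The 2 members that split by kind of culture had the intervals of -3.58 to 2.88 around -0.35 for *Aqp5* and -2.10 to 1.64 around -0.23 for *Aqp11* (edgeR adjusted p = 0.906 and 0.894). The sign of *Aqp11* turned, to 0.04, with scaling by library size only. Changes of 2-fold in either direction lie inside every interval but that of *Aqp1*, whose lower bound stops at -0.83.

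**Figure D4:**
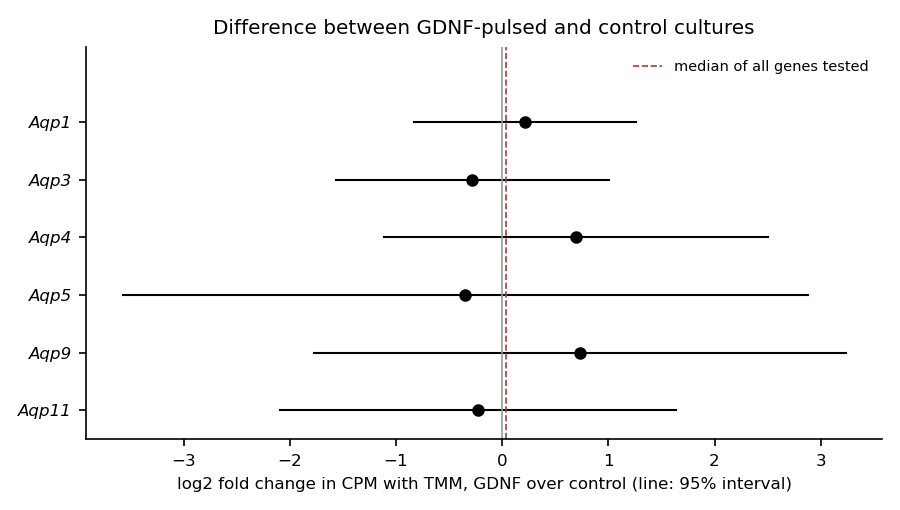
Log2 fold change in CPM with TMM between GDNF and control cultures for the 6 members tested (points) with 95% intervals (lines); the dashed line marks the median of all genes, 0.03. Every interval includes 0, and that of *Aqp5* is the widest.

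The biological coefficient of variation fitted by edgeR was 45.1% for *Aqp1*, 58.3% for *Aqp3*, 78.0% for *Aqp4*, 80.7% for *Aqp11*, 109% for *Aqp9* and 148% for *Aqp5*, against a median of 26.6% over genes. That of *Aqp5* exceeded 99.8% of genes and that of *Aqp1* 77.4%. These comparisons are with tested genes of all levels, and genes of similarly low counts were not set beside the members. The value of *Aqp9* rests on counts summed over its overlapping transcripts. A test of whether the GDNF difference itself depended on the kind of culture gave an edgeR adjusted p of 1.0 for every member, the smallest unadjusted p being 0.0687 for *Aqp5*. Over all genes that test called 0, with 94 at an unadjusted p of 0.05.

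Genes of the pathways that act on *Aqp2* were taken from fixed lists. All 15 genes of vasopressin signalling were tested, and their TPM summed to 655 to 896. None passed the adjusted p in edgeR, nor did any of the 10 to which DESeq2 gave one. At an unadjusted p of 0.05 in edgeR, which 22.1% of all genes reached (9.25% higher and 12.9% lower), 1 was higher after GDNF, the prostaglandin receptor *Ptger1* (log2 fold change in CPM 0.59 ± 0.26 SE), and 2 were lower, the protein kinase A regulatory subunits *Prkar1a* (-0.40 ± 0.15) and *Prkar2b* (-0.37 ± 0.15). The list's median was -0.14. The stimulatory G protein subunit *Gnas* was the most abundant, at 401 ± 45.5 TPM in controls and 453 ± 39.4 TPM after GDNF, but with a log2 fold change in CPM of the opposite sign (-0.23 ± 0.17 SE). The TPM of both subunits was nearly level, at 205 ± 31.2 and 205 ± 21.4 TPM for *Prkar1a* and 10.4 ± 1.42 and 10.6 ± 1.52 TPM for *Prkar2b* in control and GDNF cultures, so their sign in CPM was not seen in TPM.

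All 17 genes for the vesicle traffic of *Aqp2* were tested, with a median log2 fold change of 0.10. At an unadjusted p of 0.05, 3 were higher and 5 lower, beside 9.25% and 12.9% of all genes, and 0 passed the adjusted p in edgeR. *Vamp2*, a vesicle SNARE, averaged 43.9 ± 13.4 TPM without and 79.2 ± 4.99 TPM with the pulse (log2 fold change in CPM 0.50 ± 0.16 SE, edgeR adjusted p = 0.167). The GTPase *Rhoa* (-0.62 ± 0.18), the SNARE *Snap23* (-0.57 ± 0.18), the endosomal sorting factor *Vta1* (-0.61 ± 0.20) and the recycling GTPase *Rab11a* (-0.75 ± 0.29) were on the other side, and were also lower in mean TPM. DESeq2 called 4 of the 17, *Rhoa*, *Snap23*, *Vta1* and *Vamp8*, all lower after GDNF, as were most of its calls over all genes (2.06% higher and 12.4% lower).

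Of 10 transcription factors tied to *Aqp2*, 1 was higher at an unadjusted p of 0.05 and 0 lower, beside 9.25% and 12.9% of all genes, and 0 passed the adjusted p in edgeR. It was *Nfat5*, the factor that responds to hypertonicity, at 5.91 ± 2.44 TPM in controls and 11.4 ± 1.03 TPM after GDNF (log2 fold change in CPM 0.62 ± 0.22 SE, edgeR adjusted p = 0.177). *Elf3* and *Hoxb7*, the most abundant of them, had log2 fold changes of 0.11 ± 0.49 and -0.25 ± 0.29 SE. Among the 9 genes of the osmolyte response, *Nfat5* was again the 1 higher gene and *Akr1b3*, the aldose reductase that makes sorbitol, the 1 lower (-0.84 ± 0.31), a share near the 22.1% of all genes at that p, and 0 passed the adjusted p in edgeR. DESeq2 called *Akr1b3* of the 8 genes to which it gave an adjusted p. The medians of these lists were 0.26 and 0.14.

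Glycerol that enters through *Aqp3*, *Aqp7* or *Aqp9* is phosphorylated by glycerol kinase and used for lipid. Of 12 genes that handle it, 1 was higher and 3 lower after GDNF at an unadjusted p of 0.05 in edgeR, beside 9.25% and 12.9% of all genes, with 0 past the adjusted p and a list median of -0.11. The higher was *Gpam*, the first acyltransferase of triglyceride synthesis (log2 fold change in CPM 0.52 ± 0.21 SE). The lower were the lipid droplet coat *Plin2* (-1.04 ± 0.40), the lipase activator *Abhd5* (-0.55 ± 0.18) and glycerol kinase itself, *Gyk* (-0.36 ± 0.16), whose mean TPM had the opposite sign (6.83 ± 0.589 in controls and 7.13 ± 1.68 after GDNF). DESeq2 called *Plin2* and *Abhd5* of the 7 genes to which it gave an adjusted p, against 14.4% of all such genes. The TPM of *Plin2* varied widely in controls, at 162 ± 92.8 TPM, and was 107 ± 17.3 TPM after GDNF.

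The promoters of *Aqp11* and *Aqp3* were set side by side, since *Aqp11* divided by kind of culture and *Aqp3* did not. The 250 bases before each listed RefSeq transcript start on GRCm38.p6 were searched on both strands for 5 motifs. For *Aqp6*, *Aqp7* and *Aqp9* these starts lie inside the RefSeq gene span, so their windows lie partly or wholly within the gene. The cAMP response element, TGACGTCA, occurs in 1.55% of all 32851 promoters listed. The TATA box, TATAAA, occurs in 12.4% of them. The GC box was taken as GGGCGG, which occurs in 32.7% of them. The E box was taken as CACGTG, present in 6.02%. The GATA site was taken as AGATAA, present in 9.99%. No matches overlapped each other in the members. Matches are descriptions of letters only. The exact letters TGACGTCA were found in 0 of the 9 members with a listed promoter. Variant or shorter forms of the cAMP response element were not searched for, so its absence is not shown. The E box was found in *Aqp2*, *Aqp5*, *Aqp6* and *Aqp8*, the GC box in *Aqp1*, *Aqp3* and *Aqp5*, the GATA site in *Aqp2* and *Aqp7*, and the TATA box in *Aqp3* alone of these 9. The stretches shown lie before the start in both RefSeq and GENCODE M21, with matches in capitals.
*Aqp11*, chr7:97738290-97738497, minus strand: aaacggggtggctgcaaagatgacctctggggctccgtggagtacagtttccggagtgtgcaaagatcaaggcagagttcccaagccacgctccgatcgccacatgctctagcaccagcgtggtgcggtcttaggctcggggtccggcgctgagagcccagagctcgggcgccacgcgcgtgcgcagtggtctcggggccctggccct
*Aqp3*, chr4:41098184-41098433, minus strand: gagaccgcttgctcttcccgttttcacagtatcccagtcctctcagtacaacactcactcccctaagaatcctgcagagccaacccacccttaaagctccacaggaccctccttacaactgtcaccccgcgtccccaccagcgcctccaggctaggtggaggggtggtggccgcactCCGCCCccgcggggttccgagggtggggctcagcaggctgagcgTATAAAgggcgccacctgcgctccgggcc
*Aqp11* held none of the 5 motifs in its 250 bases, of which the 42 nearest the RefSeq start lie after the GENCODE start and are not shown. *Aqp5* held an E box and 2 GC boxes, but GENCODE M21 places its start 246 bases upstream of the RefSeq start, so these matches are not shown. *Aqp3* held a TATA box 29 to 24 bases before its start and a GC box on the reverse strand. The GC contents of 67.2% for *Aqp11*, 78.4% for *Aqp5* and 64.0% for *Aqp3* were above that of the median promoter, 52.4%.

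Over the 8 cultures, the genes whose log2 CPM ran closest to that of *Aqp11* were *Gpr160*, *Tmed6* and *Ntf3*, with root mean square differences of 0.34, 0.40 and 0.41 against a median of 1.37 over 13568 genes. Closest to *Aqp3* were *D630033O11Rik*, *Nqo1* and *Dscc1*, at 0.44, 0.48 and 0.52 against a median of 0.88. Picked as the closest, these genes lie below the median by choice. The medians were near the members' own root mean square spread around their means, 1.36 for *Aqp11* and 0.82 for *Aqp3*. The 8 cultures share these libraries and their depth, and the ranking is a description with no test.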

How the data were processed

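RNA-Seq of 8 tubuloid cultures, 4 with a GDNF pulse and 4 controls, was analysed as grouped by the sample titles and treatment labels. The authors mapped 75 bp paired-end SMART-Seq v4 reads with STAR to mm10 (GRCm38) on the BasePair platform; the submitters' processing notes also name featureCounts and DESeq2, without versions. The lane of each culture, the strand setting and the handling of multiply mapped reads are not given in the sources used here. Counts were deposited as whole, unnormalized numbers for each of 33068 RefSeq transcripts. The deposited FPKM values, used only to obtain lengths, are counts per length and library total, and gave whole lengths for 100% of transcripts (tolerance 0.01 bases). The deposited TPM values were scaled by the authors over all listed transcripts.

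Members and gene lists were chosen with earlier results of these data known. Named are all members, per list the 2 most abundant tested genes and up to 4 with the smallest unadjusted p of at most 0.05, per leading member the 3 closest genes that averaged 1 TPM or more, and marker or list genes singled out after their values were seen (*Lep*, *Cd3e*, *Adipoq*, *Avpr2*, *Vamp8*). Summed per symbol, counts went into a quasi-likelihood fit (R 4.3.3, edgeR 4.0.16: filterByExpr, TMM, glmQLFTest, Benjamini-Hochberg over 16557 genes). TPM was taken from the transcript whose count was highest on average, and members with a mean of at least 3 counts were compared by two-sided exact permutation tests over 70 assignments. Depth was 72991721 to 97490625 transcript counts; 3 counts was the lowest level shown, which covers counting error only. The kind of culture is given by which was higher in TPM, *Xist* or 4 Y-linked genes in sum. Alternatives were DESeq2 1.42.0 on all genes, DESeq2 size factors, library size only, no filter on low counts, 1 transcript per gene, kind of culture as a covariate, an adjusted p of 0.1, summed or rescaled TPM, CPM, log2(TPM + 0.1), permutation within kind, and leaving out each culture. Sequences are from GENCODE M21 and RefSeq (GRCm38.p6). Protein sequences were not used here. The remainder used SciPy 1.17.1, pandas 2.3.3, NumPy 2.4.6 and matplotlib 3.10.9 in Python 3.11.15.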

Additional observations from a re-analysis of the deposited data

Results flagged for a closer look

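In 3 of the 20 groups of 4 cultures examined (10 members in 2 groups), a culture lay far from the others of its group: its gap to the nearest, as a share of the group's range, exceeded Dixon's critical value at the 95% level. That critical value assumes normally distributed values, which values at or near 0 are not. No rate of flags by chance is therefore given. *Aqp2* was at 0.356 TPM (25 counts) in GDNF culture 6, whereas the next highest GDNF culture was at 0.0555 TPM. *Aqp6* was at 0.0627 TPM (8 counts) in control culture 3 and at 0 in the other controls. *Aqp8* was at 0.254 TPM (22 counts) in control culture 14, with the next control at 0.0218 TPM.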

How the results depend on the processing

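Under the edgeR alternatives, 0 members were called, and 0 reached an unadjusted p of 0.05 in edgeR or DESeq2. DESeq2 gave 0 of the members an adjusted p, so it has no count of calls. Of 84 alternative log2 fold changes, 76 kept their sign and 8 were reversed, with a smallest p of 0.160. Of 117 alternative differences in TPM, 101 kept their sign and 16 were reversed, and the smallest permutation p was 0.0556. With a culture left out (35 assignments) no permutation p below 0.0571 was possible, nor below 0.0556 within kind, so these alternatives could not have passed 0.05. None of these differences was called in the first place. The cause of the reversals was not tested.

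With a culture left out, the log2 fold changes ranged from -0.0226 to 0.41 for *Aqp1*, -0.83 to 0.0286 for *Aqp3*, 0.25 to 1.14 for *Aqp4*, -1.21 to 0.16 for *Aqp5*, 0.31 to 1.21 for *Aqp9* and -1.004 to 0.28 for *Aqp11*. That of *Aqp11* was 0.0395 with library size only. The differences in TPM with a culture left out ranged from -0.0256 to 0.0930 for *Aqp2*, -0.171 to 0.215 for *Aqp3*, -0.232 to 0.197 for *Aqp5*, -0.0467 to 0.0935 for *Aqp8* and -0.288 to 0.442 for *Aqp11*. In CPM with TMM the differences were -0.14 for *Aqp3*, -0.13 for *Aqp5* and -0.14 for *Aqp11*, and on the log2(TPM + 0.1) scale they were -0.0505 for *Aqp3* and -0.40 for *Aqp5*.

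edgeR called 0 genes under every alternative and DESeq2 1242. DESeq2 also called 4 genes of the *Aqp2* trafficking list, 1 of the osmolyte list and 2 of the glycerol list, where edgeR called 0. With library size only, 2 genes in place of 1 of the *Aqp2* transcription list had an unadjusted p of 0.05. Genes at that p numbered 2192 to 4104 with a culture left out, against 3665, and were fewest without GDNF culture 22 (2192), GDNF culture 12 (2321) and control culture 3 (2359).

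No paired analysis was made, because the sources do not say which control and GDNF cultures, if any, shared a mouse or preparation. With 4 cultures per group and counts from 0 to 166 per member, smaller differences than the intervals given could not be shown.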

Other observations

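*Mip* and *Aqp12*, relatives of the same family outside the 10 members, were also at low levels. *Mip*, the water channel of lens fibres, averaged 0.143 TPM on 4 to 28 counts per culture, and its log2 fold change in CPM after GDNF was 0.22 ± 0.70 (SE, edgeR adjusted p = 0.875). *Aqp12*, known from pancreatic acinar cells, did not exceed 1 count in any culture. Markers of urothelium and stratified epithelium, tissues that express *Aqp3* strongly, summed to 1.61 to 5.93 TPM.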
